A study of Homo sapiens with 12 samples.

Results

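The 10 genes described here encode the inducible parts of the machinery that cuts proteins into peptides and loads them onto MHC class I. They are PSMB8, PSMB9 and PSMB10, PSME1 and PSME2, TAP1, TAP2 and TAPBP, and ERAP1 and LAP3. They were chosen by name for their function, with earlier results of these data known. All 10 were found among the 60666 genes of the count table. All 10 rose with IFNγ in HT1376 CT cells and in HT1376 FOXP3 KO cells, by 2.31-fold to 20.8-fold. The catalytic subunits that PSMB8, PSMB9 and PSMB10 replace did not pass the test in either line, except PSMB7 in HT1376 CT when libraries were blocked by number. Under IFNγ, 7 of the 10 were lower in HT1376 FOXP3 KO than in HT1376 CT cells, against 15.7% of all genes, and LAP3 differed most, at 3.74-fold lower. Of these 7, TAPBP and ERAP1 lost their calls when certain single libraries were left out. The difference was not particular to the 10. Under IFNγ, 25 of 40 genes of the constitutive proteasome, its assembly and its other caps were also lower, as were 4 of 4 class I chains. None of these was higher, against 13.2% of all genes. LAP3 was also the 1 gene of the 10 whose response to IFNγ itself differed between the lines in the test over all 12 libraries, and PSME1, TAP1 and ERAP1 joined it once libraries were blocked by number within each line.

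The proteasome degrades cytosolic proteins in a barrel-shaped core whose catalytic sites are formed by PSMB5, PSMB6 and PSMB7. IFNγ, in part through the transcription factor IRF1, induces the alternative subunits PSMB8, PSMB9 and PSMB10, which take the place of the constitutive ones in newly assembled cores and form the immunoproteasome. PSME1 and PSME2 form the PA28 cap that opens the core, TAP1 and TAP2 pump the peptides into the endoplasmic reticulum, TAPBP (tapasin) bridges the transporter to MHC class I, and the aminopeptidases ERAP1, in the endoplasmic reticulum, and LAP3, in the cytosol, trim or degrade peptides. In tumour cells the pathway sets which peptides are shown to CD8+ T cells.

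HT1376 is a human bladder carcinoma line. HT1376 CT cells carry CRISPR/Cas9 with a guide RNA against the luciferase gene, and HT1376 FOXP3 KO cells carry it with guides against exon 2 of FOXP3, a forkhead transcription factor. By the study's methods both are puromycin-selected single-cell clones, so the clone and the deletion cannot be told apart. Cells of each line were left untreated or received IFNγ for 48 hours, and total RNA was sequenced from 3 libraries of each of the 4 groups. These libraries carry the numbers 11, 12 and 13 in every group. The labels name them as samples without saying that they came from separate cultures, so the p-values measure the spread between these libraries, which may be technical.

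The 12 libraries held 4490684 to 39270042 counts, and every pair of libraries of a group differed by more than counting noise. FOXP3 had at most 3 counts in any library of either line, so its level could not be used to check the line labels. Of 13 urothelial and epithelial markers, 10 to 12 had over 3 counts in some library of each group, with a summed level of 4388 to 5623 CPM. UPK3A was at 0 in every library, and UPK1A and UPK2 reached at most 0.234 and 0.979 CPM. These markers went both ways between the lines. Untreated, EPCAM, CDH1, GATA3 and UPK1B were called lower and KRT7 and TP63 higher in HT1376 FOXP3 KO, against 18.2% and 14% of all genes. With IFNγ, EPCAM and CDH1 were lower and KRT7 higher, against 15.7% and 13.2%. Haematopoietic markers summed to 1.44 to 7.37 CPM, with CD2, MS4A1, CD68 and NKG7 at 0 throughout. The 7 fibroblast and endothelial markers summed to 24.0 to 64.0 CPM in the HT1376 CT libraries and to 403 to 596 CPM in the HT1376 FOXP3 KO libraries, where COL1A2 and DCN carried the sum and COL1A1 and PECAM1 were lower than in HT1376 CT. The 10 genes together took 0.0611% to 0.0820% of the counts in untreated HT1376 CT and 0.0657% to 0.0678% in untreated HT1376 FOXP3 KO. With IFNγ the shares were 0.318% to 0.339% and 0.210% to 0.225%. In such bulk RNA, fewer responding cells and less RNA per cell cannot be told apart.

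Of the 10 genes, 5 lie in the MHC region of chromosome 6. On GRCh38, TAP2 (32821833 to 32838739), PSMB8 (32840717 to 32844679) and TAP1 (32845209 to 32853816) are transcribed from the minus strand. PSMB9 (32844136 to 32859851) is transcribed from the plus strand, and its main start lies 488 bases from that of TAP1, with transcription in opposite directions. TAPBP follows at 33299694 to 33314284. PSME1 and PSME2 are neighbours on chromosome 14, 4394 bases apart. PSMB10 lies on chromosome 16, ERAP1 on chromosome 5 and LAP3 on chromosome 4.

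Promoter sequences show what these scattered genes share outside their counts. RefSeq windows of GRCh38.p14, from 250 bases before to 50 after a start site, were available for all 10 genes, in 13 windows, and were searched on both strands. The core of the interferon-stimulated response element (ISRE, GAAANNGAAA), the motif bound by IRF factors, was found in 9 of the 10 genes. By window it was in 9 of the 13, against 3.57% of all 35116 windows. The 30 bases around the match are printed below for 1 or more genes of each role, 5′ to 3′ along the gene's own strand, with the match in capitals. A match that reads TTTC is the motif on the other strand. The windows are chr6:32844032-32844061 for PSMB8, chr16:67936852-67936881 for PSMB10, chr14:24146619-24146648 for PSME2, chr6:32853813-32853842 for TAP1, chr6:32838778-32838807 for TAP2, chr6:33314079-33314108 for TAPBP, chr5:96807924-96807953 for ERAP1 and chr4:17577005-17577034 for LAP3. LAP3 lies on the plus strand and the other 7 genes shown on the minus strand.
PSMB8: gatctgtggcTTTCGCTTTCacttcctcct
PSMB10: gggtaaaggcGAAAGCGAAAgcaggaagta
PSME2: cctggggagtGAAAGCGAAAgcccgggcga
TAP1: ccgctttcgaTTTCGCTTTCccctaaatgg
TAP2: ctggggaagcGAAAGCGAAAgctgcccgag
TAPBP: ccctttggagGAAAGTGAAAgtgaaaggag
ERAP1: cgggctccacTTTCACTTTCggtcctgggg
LAP3: tggcactcagTTTCTATTTCccgggagttg

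**Figure D1:**
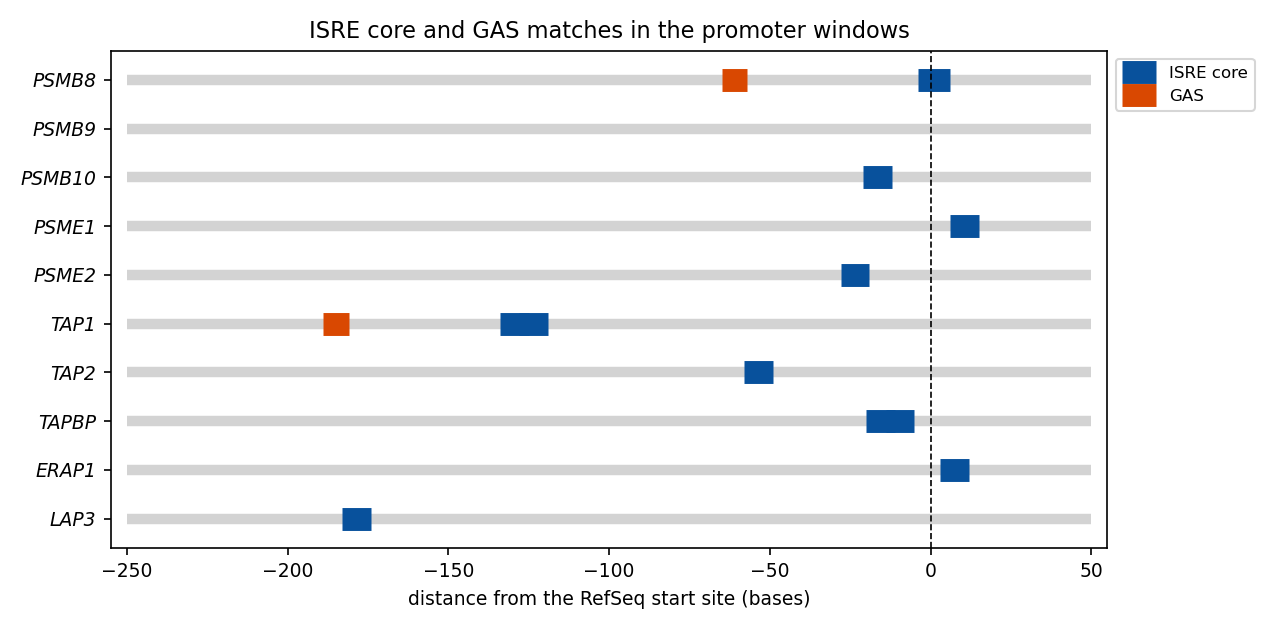
Matches to the ISRE core (blue) and to GAS (orange) in the RefSeq promoter windows of the 10 genes, with the distance from the start site of the window in bases on the horizontal axis and 1 grey bar a gene. The ISRE core lies within 58 bases of the start site in 7 genes, lies further upstream in TAP1 and LAP3, and is not in the window of PSMB9. Where a gene has 2 windows they are drawn on 1 bar, each from its own start site.

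The matches fell close to the start site in most of the genes. In PSMB10, PSME2, TAP2 and TAPBP the motif began 21, 28, 58 and 20 bases before the start, and in PSMB8, PSME1 and ERAP1 it lay on or just after it. TAP1 and TAPBP each held an overlapping pair of matches, 6 bases apart. LAP3 held its match 183 bases before the start, and the variable bases differed from those of the other genes shown above. PSMB9 had no match in its own window, but the TAP1 matches lie 354 and 360 bases upstream of its start.

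GAS (TTCNNNGAA), the gamma-activated sequence of IFNγ-responsive promoters, was found in PSMB8 and TAP1 and in 7.66% of all windows. The TAP1 match belongs to its other annotated start. The forkhead motif GTAAACA and its 3 variants that begin with AT, GC or AC in place of GT were in none of the 13 windows, while 15.1% of all windows held at least 1 of these 4. The windows begin 250 bases before the start, so sites further upstream were not searched. The FOXP3 sites that the study reported in the PD-L1 promoter lie further upstream than that. Some of them were given there as the shorter TAAACA, which was not searched for on its own here. Among genes other than the 10, the ISRE core was in the windows of 18.3% of the 542 with a window that rose with IFNγ in HT1376 CT, and of 3.50% of the 11223 that passed no test there. In HT1376 FOXP3 KO the shares were 37.6% of 149 and 3.62% of 11787. These matches are descriptions of sequence and say nothing of binding.

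The first comparison asked how IFNγ changed these genes in HT1376 CT cells. All 10 rose, against 3.53% of the 24416 genes tested, and in all 10 the treated libraries lay above the untreated ones without overlap, against 10.3% of genes. The median log2 fold change of the 10 was 2.28, where that of all genes was -0.02. Values below are normalized CPM (counts scaled to a common library size, with TMM factors), and tests are edgeR's quasi-likelihood test with Benjamini-Hochberg adjustment over all genes.

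The catalytic immunosubunits rose by 6.04-fold to 12.0-fold. PSMB9 was at 10.9, 21.5 and 18.0 CPM in the untreated libraries and at 177, 204 and 212 CPM with IFNγ (log2 fold change 3.59, SE 0.22, adjusted p = 9.09e-07). PSMB8 was at 38.4, 49.3 and 42.3 CPM untreated and at 263, 245 and 262 CPM with IFNγ (2.59, SE 0.12, adjusted p = 9.97e-08). Their treated libraries spread by far less than the response. PSMB10, the lowest of the 3 per kb of transcript, was at 3.39, 1.91 and 3.89 CPM untreated, where library 12 held 24 counts, and at 23.4, 24.7 and 20.5 CPM with IFNγ (2.87, SE 0.25, adjusted p = 2.4e-05).

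Both subunits of the PA28 cap rose by nearly the same factor. PSME1 went from 58.4, 69.0 and 58.0 CPM to 238, 250.2 and 228 CPM (log2 fold change 1.97, SE 0.11, adjusted p = 7.13e-07). PSME2 went from 50.7, 58.5 and 50.4 CPM to 220.3, 191 and 199 CPM (1.96, SE 0.11, adjusted p = 7.21e-07). The ratio of PSME1 to PSME2 counts within a library, a value picked after the data were seen, averaged 1.16 ± 0.02 (SD, n = 3) untreated and 1.18 ± 0.12 with IFNγ.

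The transporter subunits did not rise alike. TAP1, at 32.1, 46.7 and 50.1 CPM untreated, reached 866, 834 and 935 CPM, a 20.8-fold rise and the steepest of the 10 (log2 fold change 4.38, SE 0.17, adjusted p = 1.91e-08). TAP2 rose 3.76-fold, from 39.1, 36.0 and 41.7 CPM to 149.7, 141 and 142 CPM (1.91, SE 0.11, adjusted p = 6.76e-07). The ratio of TAP1 to TAP2 counts, also picked after the data were seen, was 1.11 ± 0.25 (SD, n = 3) untreated and 6.10 ± 0.42 with IFNγ, without overlap. TAPBP rose 2.71-fold, the smallest change of the 10, from 195, 287 and 277 CPM to 616, 697 and 705 CPM (1.44, SE 0.14, adjusted p = 7.68e-05).

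Of the aminopeptidases, LAP3 rose 7.98-fold and ERAP1 3.20-fold. LAP3 was at 35.2, 36.5 and 35.9 CPM untreated, the tightest of the 10 in that group, and at 263, 318 and 263 CPM with IFNγ (log2 fold change 2.996, SE 0.12, adjusted p = 3.45e-08). ERAP1 was at 163, 221 and 202 CPM untreated and at 603, 608 and 631 CPM with IFNγ (1.68, SE 0.12, adjusted p = 4.02e-06).

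**Figure D2:**
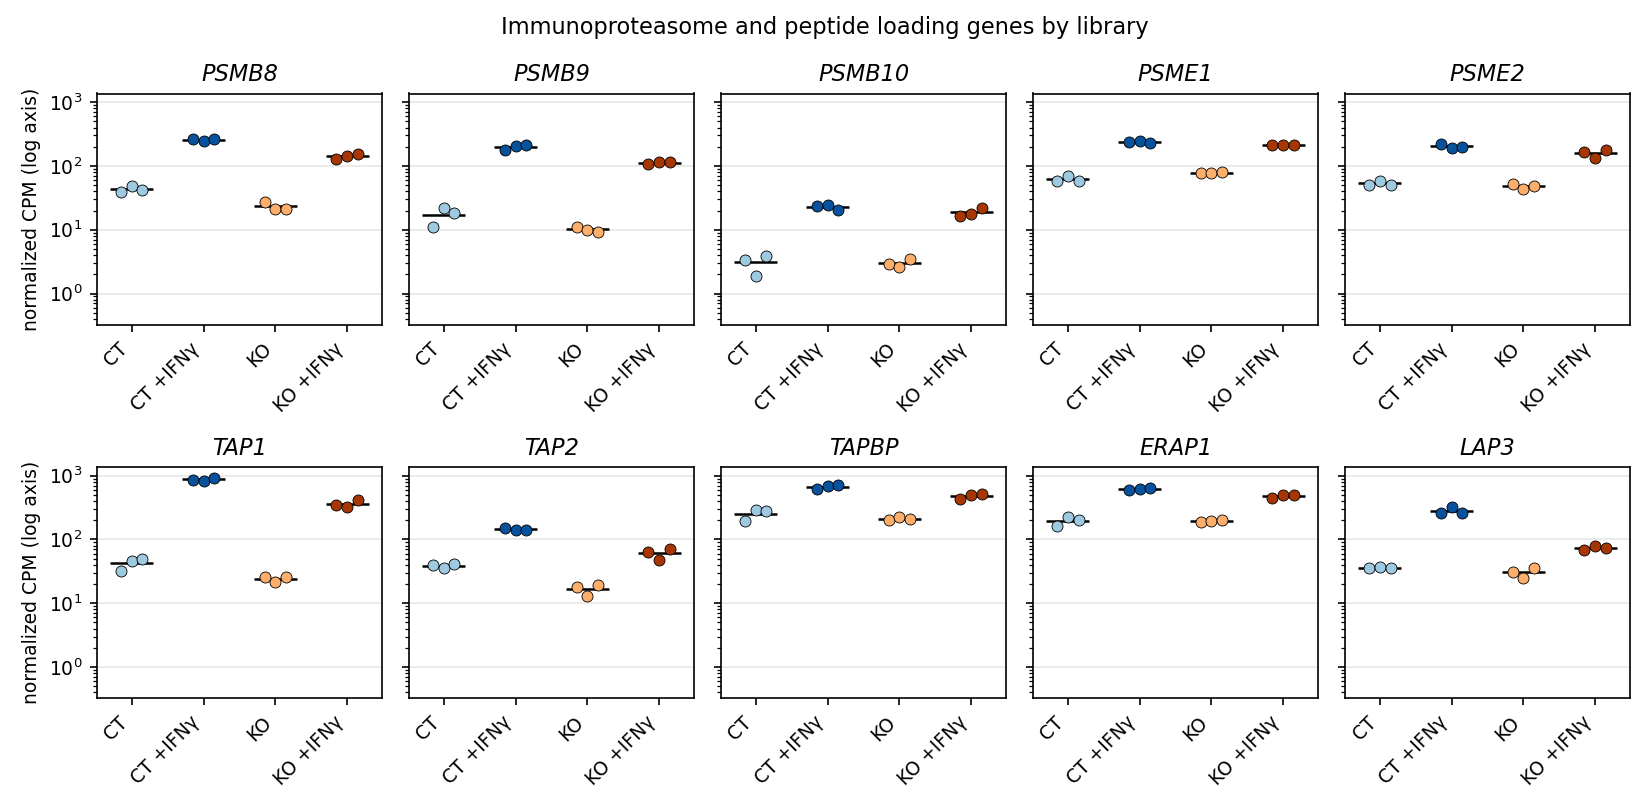
Normalized CPM (log axis) of the 10 genes in each of the 12 libraries, by line and treatment, with 1 point a library and a line at the group mean. Every gene is higher in each IFNγ library than in each untreated library of the same line, and LAP3 with IFNγ lies at 263 to 318 CPM in HT1376 CT and at 67.9 to 77.7 CPM in HT1376 FOXP3 KO.

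The second comparison put the same question to HT1376 FOXP3 KO cells. All 10 rose again, against 0.978% of the 24131 genes tested, and none of the 10 overlapped between treatments, against 6.11% of genes. The median log2 fold change was 1.80, beside -0.01 for all genes. TAP1 again rose most and TAPBP least, by 15.1-fold and 2.31-fold.

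PSMB9 rose 11.3-fold, from 11.1, 9.99 and 9.27 CPM to 108, 115 and 116 CPM (log2 fold change 3.50, SE 0.12, adjusted p = 6.86e-07). PSMB8 rose 6.17-fold, from 27.5, 21.4 and 21.3 CPM to 128, 145 and 157 CPM (2.63, SE 0.14, adjusted p = 1.06e-05). PSMB10 went from 2.91, 2.59 and 3.46 CPM to 16.2, 17.9 and 21.9 CPM (2.66, SE 0.19, adjusted p = 6.97e-05). In none of the 3 did the treatments overlap.

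PSME1 was at 78.3, 77.0 and 79.5 CPM untreated and at 209.7, 212 and 214 CPM with IFNγ, a 2.74-fold rise (adjusted p = 3.11e-05). PSME2 rose 3.35-fold, from 51.7, 43.4 and 48.8 CPM to 166, 132 and 179 CPM (adjusted p = 6.59e-05). TAP1 was at 25.4, 21.4 and 25.9 CPM untreated and at 345, 328 and 416 CPM with IFNγ (adjusted p = 4.39e-07). In this line too the rise of TAP1 exceeded that of TAP2, and the count ratio of the pair went from 1.46 ± 0.17 (SD, n = 3) to 6.08 ± 0.68. TAP2 itself went from 18.0, 12.9 and 19.6 CPM to 62.5, 47.9 and 70.7 CPM (3.62-fold, adjusted p = 0.00051).

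TAPBP went from 199.99, 225 and 206 CPM to 425, 505 and 514 CPM (adjusted p = 0.000369), and ERAP1 from 184, 195 and 198 CPM to 441, 491 and 490.1 CPM (2.49-fold, adjusted p = 6.51e-05). LAP3 rose 2.43-fold, from 30.9, 25.0 and 35.4 CPM to 67.9, 77.7 and 73.4 CPM (log2 fold change 1.28, SE 0.14, adjusted p = 0.00109). The LAP3 libraries did not overlap between treatments, and its highest treated library lay at 77.7 CPM where the lowest in HT1376 CT lay at 263 CPM.

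Libraries with the same number varied together within each line, so the 2 IFNγ comparisons were also fitted with the number as a block. The 10 genes all stayed past the threshold, and more of all genes passed it, 8.67% higher in HT1376 CT and 3.92% higher in HT1376 FOXP3 KO. Between treated and untreated libraries of the same number, TAP1 rose 17.9-fold to 27.0-fold in HT1376 CT and 13.6-fold to 16.0-fold in HT1376 FOXP3 KO. For TAPBP, at the other end, these ranges were 2.43 to 3.16 and 2.12 to 2.502.

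The constitutive subunits gave a measure of how far the catalytic sites shifted at the RNA level. PSMB5, PSMB6 and PSMB7 had log2 fold changes with IFNγ of -0.20, -0.04 and 0.23 in HT1376 CT (adjusted p = 0.473, 0.905 and 0.269) and of -0.06, -0.17 and -0.02 in HT1376 FOXP3 KO (adjusted p = 0.999 for each). PSMB7 passed the test in HT1376 CT with the replicate block (adjusted p = 0.00589). The immunosubunit's share of its pair, in counts per kb of the main transcript, does not depend on how libraries are scaled.

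PSMB8 made up 34.2%, 42.7% and 34.2% of the PSMB8 and PSMB5 pair in untreated HT1376 CT and 81.1%, 81.2% and 78.7% with IFNγ. In HT1376 FOXP3 KO the shares were 31.3%, 31.5% and 24.8% untreated and 72.1%, 75.4% and 70.5% with IFNγ. These 4 groups did not overlap, and the share was lower in HT1376 FOXP3 KO both without and with IFNγ. The log2 ratio of the pair's counts differed between the lines by -0.51 untreated and -0.62 with IFNγ. Each exact two-sided permutation test gave p = 0.1, the smallest that 3 libraries against 3 allow.

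PSMB9 made up 12.9% ± 4.0 (SD, n = 3) of its pair with PSMB6 in untreated HT1376 CT and 64.6% ± 3.0 with IFNγ. In HT1376 FOXP3 KO the shares were 10.7% ± 0.76 and 60.4% ± 2.5. The lines overlapped in both states (exact permutation p = 0.5 untreated and p = 0.3 with IFNγ). PSMB10 was the minor partner of PSMB7 in every library, at 1.11% ± 0.34 and 6.83% ± 1.0 in HT1376 CT without and with IFNγ. Here HT1376 FOXP3 KO held the larger share, 1.96% ± 0.02 and 11.4% ± 0.70, without overlap in either state, and PSMB7, not PSMB10, was the partner called lower in that line. With the length of all exons in place of the main transcript, the mean PSMB8 shares with IFNγ were 66.2% and 56.1%, so the percentages depend on the length used, while the ratio of counts does not.

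**Figure D3:**
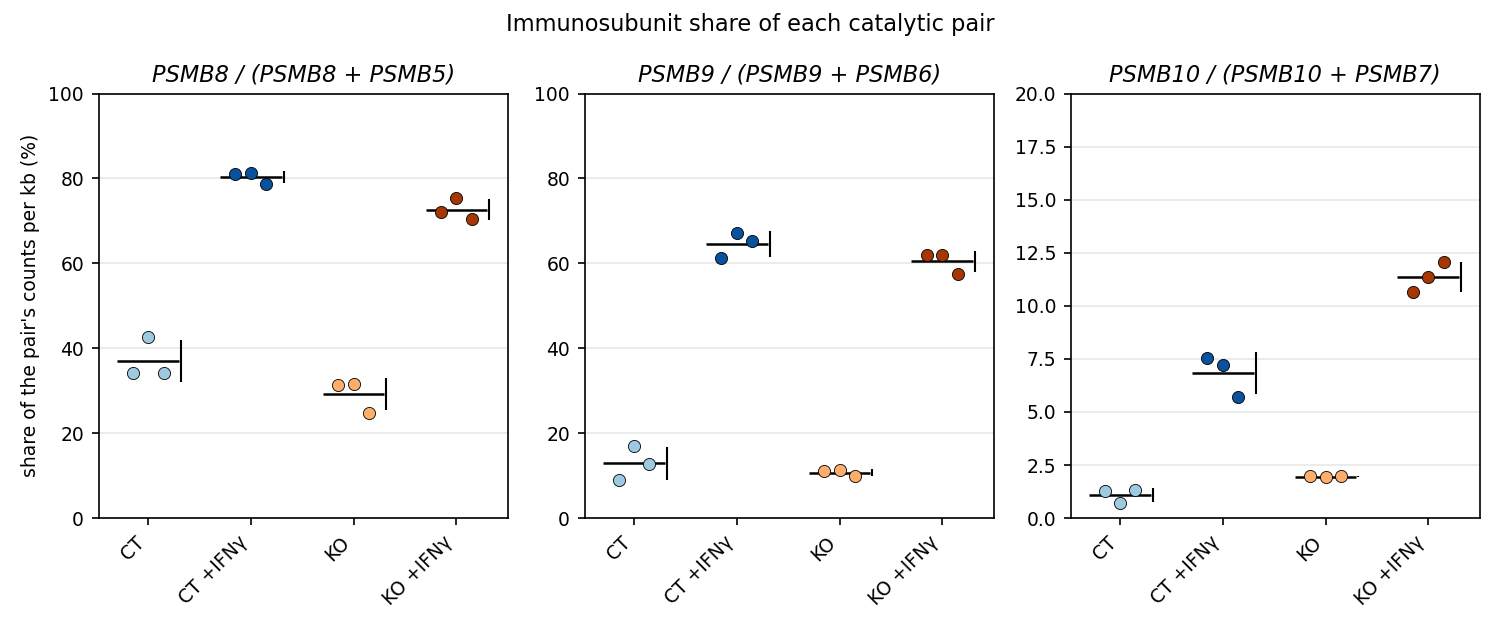
Share of PSMB8, PSMB9 and PSMB10 in the counts per kb of each pair with PSMB5, PSMB6 and PSMB7, in percent, with 1 point a library, a horizontal line at the mean and a vertical bar of 1 SD on each side (n = 3). The third panel runs to 20%, the others to 100%. IFNγ took PSMB8 from 37.0% to 80.3% and PSMB9 from 12.9% to 64.6% of their pairs in HT1376 CT, and PSMB10 to 6.83%. Lengths are those of the main transcript. With the length of all exons, PSMB9 with IFNγ stood at 49.4% in HT1376 CT.

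The third comparison set the untreated lines against each other, and it shares its libraries with the IFNγ comparisons. TAP2, PSMB8, TAP1 and PSMB9 were lower in HT1376 FOXP3 KO, 4 of 10 against 18.2% of the 25320 genes tested. PSME1 was higher, 1 of 10 against 14% of genes. Without overlap between the lines, 3 of the 10 were lower (25.7% of genes) and 1 higher (20.7%). The other 5, PSMB10, PSME2, TAPBP, ERAP1 and LAP3, did not pass the test. The median log2 difference of the 10 was -0.23, beside -0.02 for all genes.

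TAP2 differed most, at 12.9 to 19.6 CPM in HT1376 FOXP3 KO and 36.0 to 41.7 CPM in HT1376 CT, or 2.27-fold lower (log2 difference -1.19, SE 0.16, adjusted p = 0.000237). PSMB8 was 1.82-fold lower (-0.87, SE 0.15, adjusted p = 0.0013) and TAP1 1.75-fold lower (-0.81, SE 0.17, adjusted p = 0.00442). PSMB9 was 1.64-fold lower (-0.71, SE 0.24, adjusted p = 0.0405), but the lines overlapped, since library 11 of HT1376 CT lay at 10.9 CPM. Leaving out any library but that one ended its call (adjusted p = 0.0702 to 0.17), as did a filter of at least 1 CPM in 3 libraries (adjusted p = 0.06). PSME1 was 1.28-fold higher (0.36, SE 0.11, adjusted p = 0.0336), a call that was lost without library 11 or 13 of HT1376 CT or library 11 of HT1376 FOXP3 KO (adjusted p = 0.0723, 0.0948 and 0.0599) and with no filter on low counts (adjusted p = 0.0533). With library 13 of HT1376 CT or library 11 of HT1376 FOXP3 KO left out, 3 of the 10 genes were called in place of 5.

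The untreated lines gave no call for the rest. LAP3 had a log2 difference of -0.22 (95% interval -0.53 to 0.09) and TAPBP of -0.25 (-0.57 to 0.07), which passed only without library 11 of HT1376 CT (adjusted p = 0.0461). For ERAP1 the difference was 0.00 (-0.28 to 0.27) and for PSME2 it was -0.13 (-0.40 to 0.14). The interval of PSMB10, with 24 to 147 counts in these libraries, ran from -0.75 to 0.67, the widest of these 5.

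The fourth comparison set the lines against each other under IFNγ. LAP3, TAP1, TAP2, PSMB8, PSMB9, TAPBP and ERAP1 were lower in HT1376 FOXP3 KO, 7 of 10 against 15.7% of the 24388 genes tested, and none was higher, against 13.2%. In 9 of the 10, all but PSMB10, the libraries of HT1376 FOXP3 KO lay below those of HT1376 CT without overlap, against 22.6% of genes. The median log2 difference was -0.60, beside 0.02 for all genes.

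LAP3 was 3.74-fold lower, at 67.9, 77.7 and 73.4 CPM against 263, 318 and 263 CPM (log2 difference -1.90, SE 0.13, adjusted p = 1.59e-06). TAP1 was 2.35-fold lower (-1.23, SE 0.11, adjusted p = 1.3e-05) and TAP2 2.32-fold lower (-1.21, SE 0.14, adjusted p = 8.93e-05). The TAP1 libraries lay at 328 to 416 CPM in HT1376 FOXP3 KO and at 834 to 935 CPM in HT1376 CT. PSMB8 and PSMB9 were 1.74-fold and 1.70-fold lower (adjusted p = 0.00032 and 0.000615).

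Smaller differences were found for TAPBP, 1.36-fold lower (adjusted p = 0.014), and ERAP1, 1.26-fold lower (adjusted p = 0.03). TAPBP lost its call without library 13 of HT1376 CT or library 11 of HT1376 FOXP3 KO (adjusted p = 0.0712 and 0.0691). ERAP1 lost its call in 5 of the 6 fits without 1 library, all but the one without library 12 of HT1376 FOXP3 KO (adjusted p up to 0.119), and with no filter on low counts (adjusted p = 0.0689). PSME2 (-0.31, 95% interval -0.60 to -0.03, adjusted p = 0.097), PSMB10 (-0.24, -0.62 to 0.14, adjusted p = 0.341) and PSME1 (-0.13, -0.36 to 0.11, adjusted p = 0.42) did not pass.

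**Figure D4:**
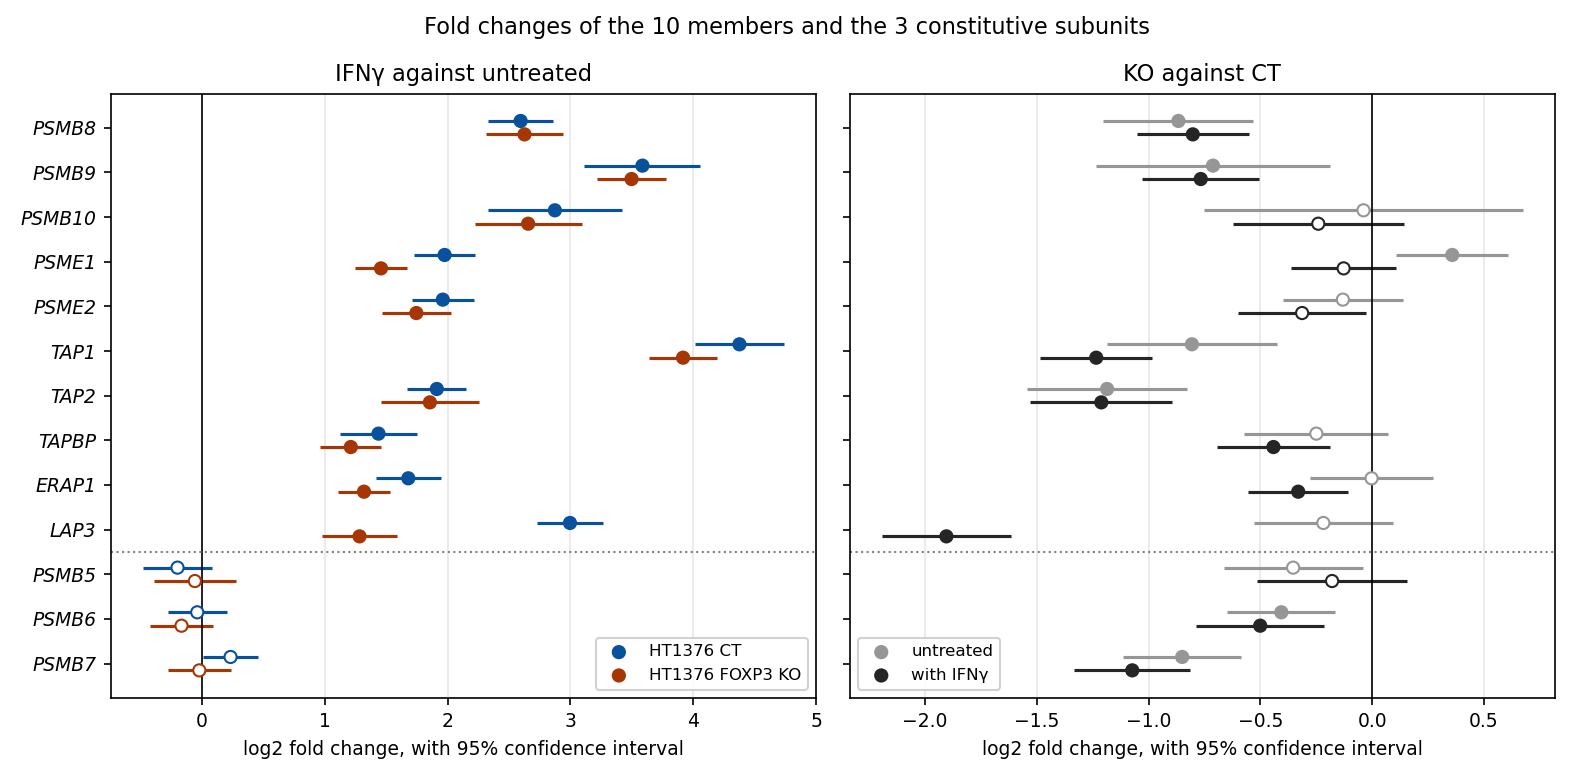
Log2 fold change with a 95% confidence interval derived from edgeR's F statistic for the 10 genes and, under the dotted line, PSMB5, PSMB6 and PSMB7, for IFNγ against untreated in each line (left) and for HT1376 FOXP3 KO (KO) against HT1376 CT (CT) in each state (right). Filled points passed an adjusted p of 0.05, and open points did not. With IFNγ all 10 genes lie between 1.21 and 4.38, and LAP3 is the gene whose intervals lie furthest apart between the lines.

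Other parts of the proteasome were also lower in HT1376 FOXP3 KO. Of the 40 genes of the constitutive proteasome, its assembly and its other caps, 27 were lower and 1, PSMA6, was higher in the untreated comparison, against 18.2% and 14% of all genes, with a median of -0.41. Under IFNγ, 25 were lower and 0 higher, against 15.7% and 13.2%, with a median of -0.48. PSMB6 and PSMB7 were among them in both states, at -0.41 and -0.85 untreated (adjusted p = 0.0159 and 0.000286) and at -0.50 and -1.07 with IFNγ (adjusted p = 0.0141 and 5.09e-05). Dropping 1 library ended the call of PSMB6 in 3 of 6 cases untreated (adjusted p = 0.0519 to 0.095) and in 2 of 6 with IFNγ (adjusted p = 0.0629 and 0.0696). The lines differed as well in the fibroblast and endothelial markers, whose summed level was 46.9 to 64.0 CPM in HT1376 CT and 413 to 596 CPM in HT1376 FOXP3 KO untreated, and 24.0 to 34.8 CPM and 403 to 569.5 CPM with IFNγ. These markers went both ways, with COL1A2, DCN and PDGFRB called higher and COL1A1 and PECAM1 called lower in HT1376 FOXP3 KO in both states. COL1A1 averaged 28.8 CPM in HT1376 CT and 7.77 CPM in HT1376 FOXP3 KO untreated, and 17.1 and 6.42 CPM with IFNγ. Of these 7 markers 5 to 7 had over 3 counts in some library of a group, with PECAM1 at 0 in untreated HT1376 FOXP3 KO and CDH5 at 0 in HT1376 CT with IFNγ. Their part in the differences of the 10 genes was not tested.

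The interaction of line and IFNγ asked whether the response itself differed between the lines. LAP3 alone of the 10 was called, with a smaller rise in HT1376 FOXP3 KO, 1 of 10 against 0.108% of the 27806 genes tested. Its log2 response was smaller by 1.72 (log2 difference of responses -1.72, SE 0.18, 95% interval -2.11 to -1.33, adjusted p = 0.000458). It started from levels that did not pass the test between the untreated lines, reached 7.98-fold in HT1376 CT and 2.43-fold in HT1376 FOXP3 KO, and each of the 3 same-numbered ratios in HT1376 CT (7.33 to 8.71) exceeded those in HT1376 FOXP3 KO (2.08 to 3.11).

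The other 9 did not pass. The intervals of PSME1 (-0.52, -0.83 to -0.21, adjusted p = 0.394), TAP1 (-0.46, -0.91 to -0.01, adjusted p = 0.789) and ERAP1 (-0.36, -0.70 to -0.03, adjusted p = 0.767) lay below 0 before adjustment. With the replicate number as a block within each line, these 3 were called beside LAP3, 4 of 10 against 2.06% of genes (adjusted p = 1.98e-05, 3.57e-05 and 0.000608), and DESeq2 called PSME1 and LAP3, 2 of 10 against 0.689% of genes. PSMB8, PSMB9 and TAP2 had differences of 0.03, -0.09 and -0.06, with intervals of -0.37 to 0.42, -0.64 to 0.46 and -0.54 to 0.42. For PSMB10, PSME2 and TAPBP the differences were -0.23, -0.22 and -0.23, with intervals reaching -0.92, -0.60 and -0.64. TAP2 was lower in HT1376 FOXP3 KO by a log2 difference of -1.19 untreated and -1.21 with IFNγ, and PSMB8 by -0.87 and -0.80.

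The rest of the pathway was counted by role, beside 3.53% of all genes that rose in HT1376 CT and 0.978% in HT1376 FOXP3 KO. Of the 11 other subunits of the 20S core, 4 rose in HT1376 CT, led by PSMA4 (log2 fold change 1.07), and 1, PSMA4 (0.62), rose in HT1376 FOXP3 KO. POMP, which assembles the core, was the 1 of 5 assembly factors that rose in HT1376 CT (0.52), and none rose in HT1376 FOXP3 KO. None of the 18 genes of the 19S cap and none of the 3 other core activators and inhibitors was called with IFNγ in either line. Promoter windows were available for 9 of these 11 core subunits, and PSMA4 and PSMB4 were those with an ISRE core, against 3.57% of all windows. PSMB4 was not called with IFNγ in either line, while PSMA1, PSMA3 and PSMA5 rose in HT1376 CT.

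On the loading side, the 5 other chaperones all rose in HT1376 CT, led by the tapasin homologue TAPBPL (2.10), and TAPBPL alone rose in HT1376 FOXP3 KO (1.49). Of 7 other peptidases, ERAP2 rose in both lines (2.28 and 1.58), and BLMH fell by 0.76 on the log2 scale in HT1376 CT. All 4 class I chains rose in both lines, among them B2M, the light chain, by 2.87 in HT1376 CT and 2.59 in HT1376 FOXP3 KO. Under IFNγ these groups were lower in HT1376 FOXP3 KO in 4 of 5 chaperones, 5 of 7 peptidases and 4 of 4 class I chains, against 15.7% of all genes, with B2M at -1.21. None was higher, against 13.2%. Untreated, 4 of 5 chaperones, 3 of 7 peptidases and 3 of 4 class I chains were already lower, against 18.2% of all genes. TAPBPL alone was higher there, against 14%.

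Among the IFNγ signalling genes 5 of 8 rose in HT1376 CT and 4 of 8 in HT1376 FOXP3 KO. Between the lines, 5 of 8 were lower and 1 higher in HT1376 FOXP3 KO, both untreated and with IFNγ. The shares of all genes were 18.2% and 14% untreated, and 15.7% and 13.2% with IFNγ. IRF1 rose by 3.83 and 2.91, and its response was smaller in HT1376 FOXP3 KO (interaction -0.93, adjusted p = 0.0171). NLRC5, the transactivator of MHC class I genes, rose by 4.30 and 6.16 from 8.96 and 1.29 CPM, and under IFNγ it was lower in HT1376 FOXP3 KO by a log2 difference of -0.81 (adjusted p = 0.000373).

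**Figure D5:**
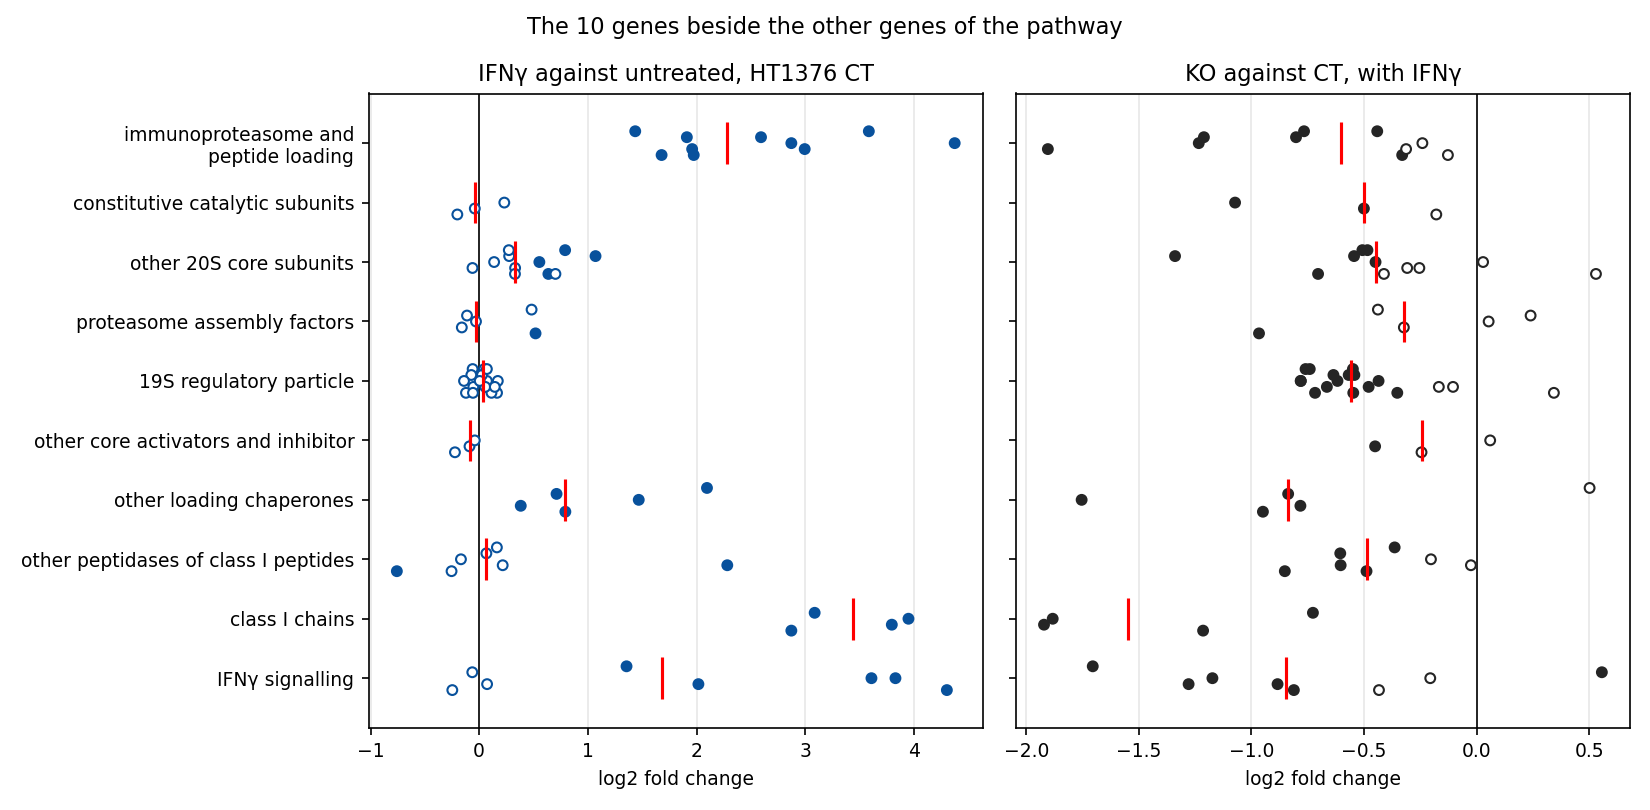
Log2 fold changes of the 10 genes and of 9 other groups of the pathway, for IFNγ against untreated in HT1376 CT (left) and for HT1376 FOXP3 KO (KO) against HT1376 CT (CT) with IFNγ (right), with 1 point a gene, filled where the adjusted p was under 0.05, and a red line at each group's median. On the left the 10 genes have a median of 2.28 and the 19S regulatory particle 0.04. On the right both lie below 0, with medians of -0.60 and -0.56.

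The order of the levels changed with IFNγ. Per kb of the main transcript, TAPBP led in untreated HT1376 CT with 73.3 ± 14.6 CPM per kb (SD, n = 3), followed by PSME2 and PSME1 at 67.1 and 64.1, and neighbours in that order overlapped. TAP1 stood eighth of 10 there, at 16.0 ± 3.6, and first with IFNγ, at 327 ± 19.3, above PSME2 (256.5) and PSME1 (247) without overlap. In HT1376 FOXP3 KO with IFNγ, PSME1 (219.8), PSME2 (200.5), TAPBP (139.5) and TAP1 (135) led, with overlap between PSME1 and PSME2 and between TAPBP and TAP1, and TAP1 also overlapped PSMB8 (127), the next in order. PSMB10 and TAP2 held the lowest places in all 4 groups.

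Across the 12 libraries, Pearson's r between the log2 CPM of member pairs ran from 0.781 to 0.995 over 45 pairs, with a median of 0.954. The 5 other genes most like the mean of the 10, among 27806 genes, were IRF1 (r = 0.998), IDO1 (0.997), APOL6 (0.996), TRIM69 (0.996) and PARP14 (0.994). All points share the split by IFNγ, so these values are a description of that split and of the lines. IRF1, for example, averaged 62.8 and 878 CPM without and with IFNγ in HT1376 CT, and 51.0 and 378 CPM in HT1376 FOXP3 KO.

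Some of the genes overlap others in the annotation. How strand and ambiguous reads were handled in counting was not given in the sources used here, so reads of these genes could be shared or left out. PSMB10 shares 640 exon bases, 39.4% of its own, with the gene ENSG00000261884 on the same strand, which held 522 counts over the 12 libraries where PSMB10 held 2184. TAP2 shares 2023 exon bases, 19.5% of its own, with ENSG00000250264 on the same strand, which held 0 counts. Strand cannot separate reads in these overlaps of PSMB10 and TAP2. Their effect on the levels and ratios of PSMB10 and TAP2 was not tested. PSMB8-AS1, with 2138 counts, overlaps exons of PSMB8 and TAP1 on the opposite strand. It shares 174 exon bases with PSMB9, 5.21% of those of PSMB9, on the same strand, so strand cannot separate reads there either. PSME2 shares 77 exon bases with MIR7703 on the same strand, which held 0 counts. PSMB8 and PSMB9 share 139 exon bases on opposite strands, and ERAP1 shares 299 with CAST, whose 149894 counts exceed the 69510 of ERAP1.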

How the data were processed

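RNA-seq of 12 HT1376 libraries was analysed, 3 in each of 4 groups taken from the sample labels. The labels mark the control libraries as WT, read here as HT1376 CT, the control named in the study's RNA-seq methods. The authors prepared ribosomal RNA-depleted libraries (KAPA RNA HyperPrep with RiboErase), aligned paired reads with STAR (2.7.11a per the submitters' processing notes) to GRCh38 with Ensembl 103, removed Mycoplasma reads with Kraken and counted reads per gene with htseq-count. The values the authors deposited are raw whole-number counts. How strand and ambiguous reads were handled in counting is not given in the sources used here. The IFNγ dose of these libraries was not stated with the RNA-seq methods and is not reported.

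Each pair of groups was compared on its own 6 libraries in edgeR 4.0.16 by quasi-likelihood F-tests (R 4.3.3, TMM, a minimum of 10 counts summed over the libraries, Benjamini-Hochberg adjustment over all genes tested, called at an adjusted p under 0.05). All 12 libraries entered the test of whether the IFNγ response differed between the lines. edgeR's test gives no SE, so each SE was taken as the absolute log2 fold change over the square root of F. The 95% intervals used this SE and the t distribution with the test's degrees of freedom. All 10 genes passed the filter in every comparison. The comparisons share libraries, so they are not independent. Normalized CPM used TMM factors over the 12 libraries, and correlations used log2 CPM with a prior count of 2. Subunit ratios were taken on counts within a library and compared with two-sided exact permutation tests. The fits were tested on simulated data.

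The replicate numbers were checked for pairing. Across genes, deviations from the group means of same-numbered libraries correlated at 0.139 to 0.152 within HT1376 CT and 0.180 to 0.267 within HT1376 FOXP3 KO, but at 0.0407 to 0.136 between the lines, and different numbers at -0.190 to 0.0706. On this basis the number was read as a pairing inside each line only, and it entered as a block in alternative fits. The main fits and the permutation tests of the ratios used no block. The 10 genes, the other lists and the tests were chosen with earlier results of these data known. The genes named in the text are the 10, PSMB5, PSMB6 and PSMB7, at most the largest rise and fall past the threshold in each other list, IRF1, NLRC5 and B2M, the 5 genes most correlated with the 10, and genes that overlap them. One further gene that the rule gives by name is not reported here. PSMB4 and markers of the cell type lists outside this rule were named after their values were seen.

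Alternatives were RLE normalization, DESeq2 1.42.0, no filter, at least 1 CPM in 3 libraries, the bias-adjusted deviance, a replicate block, all 12 libraries in 1 fit, a fold threshold, 0.5 added to the counts of a ratio, and leaving out each library in turn. Gene positions and exon overlaps came from GENCODE 44 on GRCh38, and promoter windows from RefSeq on GRCh38.p14. Depth was 4490684 to 39270042 counts (median 15551202). Library values of up to 3 counts were read as not above 0, which accounts for counting error only.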

Additional observations from a re-analysis of the deposited data

Results flagged for a closer look

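The response of LAP3 to IFNγ differed between the lines in a test of the difference itself. The log2 response in HT1376 FOXP3 KO minus that in HT1376 CT was -1.72 (SE 0.18, adjusted p = 0.000458, edgeR on all 12 libraries), with responses of 1.28 and 2.996. The call held under each alternative and without any 1 library.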

How the results depend on the processing

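All 10 genes stayed called higher with IFNγ in both lines under each alternative and without any 1 library, and the log2 ratios of PSMB8 to PSMB5, PSMB9 to PSMB6 and PSMB10 to PSMB7 kept their direction. For counts over all genes, IFNγ in HT1376 CT gave 1307 calls, against 2248 with no filter, 4525 with the replicate block, 4100 with the replicate block and bias-adjusted deviance, 679 with an absolute log2 fold change over 1, and 762 to 1201 without 1 library. In HT1376 FOXP3 KO the 237 calls became 1334 with the replicate block and 1027 with the bias-adjusted deviance added. The interaction's 31 calls became 151 with DESeq2, 294 with no filter, 336 with the replicate block on the number and 230 with the bias-adjusted deviance added, 1320 with the replicate block within each line and 867 with the bias-adjusted deviance added, and 15 to 33 without 1 library. Its count among the 10 genes, 1, became 2 with DESeq2 and with either block on the number, and 4 with either block within each line.

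Between the untreated lines, 5 of the 10 were called, 3 to 5 without 1 library and 1 with an absolute log2 fold change over 1 (4944 of all genes, where 8135 were called). With IFNγ, 7 were called, 8 with the replicate block (PSME2, adjusted p = 0.023) and with all 12 libraries in 1 fit (PSME2, adjusted p = 0.047), 3 with an absolute log2 fold change over 1 (4625 of 7046 genes) and 0 with one over 2 (2948 genes). The replicate block between lines, where the numbers were not taken as pairs since some correlations were below 0.1, changed no other call of the 10, and of the constitutive subunits it called PSMB5 untreated (adjusted p = 0.0109).

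Signs turned for values that were not called. ERAP1 between untreated lines was 0.0192 with RLE and with DESeq2, 0.0484 with the CPM filter, 0.00871 with the replicate block, 0.00913 with the bias-adjusted deviance added, and -0.0774 to 0.129 without 1 library, and PSMB10 was 0.0114 with the CPM filter and -0.236 to 0.204 without 1 library. In the interaction PSMB8 was -0.0174 with the block within each line and the bias-adjusted deviance. Without 1 library, the interaction values ran from -0.0113 to 0.207 for PSMB8, -0.230 to 0.183 for PSMB9, -0.400 to 0.0557 for PSMB10 and -0.126 to 0.134 for TAP2. IFNγ values ran from -0.0816 to 0.0257 for PSMB6 in HT1376 CT, and from -0.191 to 0.0167 for PSMB5 and -0.0900 to 0.0735 for PSMB7 in HT1376 FOXP3 KO. The cause was not tested. PSMB10 had the fewest counts behind its values, with 24 in untreated HT1376 CT library 12.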
